A study of Mus musculus with 4 samples.

Results

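Neutrophils that stayed with the mononuclear cells of mouse blood were followed through cerulein-induced acute pancreatitis. They were chosen by their own transcripts. A cell was taken as a neutrophil when S100a8 and S100a9 together made up at least 8% of its unique molecular identifiers (UMIs, the count of captured RNA molecules) and mitochondrial UMIs at most 10%. It could hold at most 1 UMI over Csf1r and Fn1, 1 over Cd3e, Cd3d and Cd3g, and 1 of Cd79b, genes of monocytes, T cells and B cells. This gave 220 of 53380 cells, of which 23 came from control, 69 from 12 h, 118 from 24 h and 10 from 96 h. The share of S100a8 and S100a9 therefore chose these cells and is given only as a description. Control and 96 h hold few cells, so the comparisons are of 24 h with 12 h and of neutrophils with monocyte-like cells of the same library.

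Neutrophils are short-lived phagocytes that leave the bone marrow in large numbers in acute inflammation and are among the first cells to enter the inflamed pancreas. Their proteases and antimicrobial proteins are packed into granules in order of maturation, azurophil granules first, then specific granules, then gelatinase granules and secretory vesicles, so that most granule genes are already shut down in a mature blood neutrophil. S100a8 and S100a9 encode calprotectin, the main cytosolic protein of the cell. A Ficoll gradient pellets most neutrophils with the red cells, and those found among mononuclear cells are called low-density neutrophils, a mixture of immature and of mature or activated cells that is larger in systemic inflammation.

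Wild-type C57BL/6J mice of 6 to 8 weeks gave peripheral blood, and its mononuclear cells were profiled by droplet 5′ single-cell RNA sequencing. The 3 pancreatitis groups were treated with 7 intraperitoneal injections of cerulein, a cholecystokinin analogue that overstimulates acinar cells, and were sampled at 12 h, 24 h and 96 h; the control group was sampled at 0 h. The last time is 96 h in the sample labels and 168 h in the text on the study's design. Each group is 1 library, the number of animals behind it is not given in the sources used here, and no difference below has a replicate check or a p-value. Levels are UMIs summed over the neutrophils of a library and scaled to counts per 1000000 UMIs (CPM). Every 95% interval, given in brackets, covers counting error only, not the spread between animals or cells, and UMIs of 1 cell are not independent.

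The libraries held 11663 to 14569 cells, of which 11027 to 13561 passed the mitochondrial limit. The barcode lists of 12 h and 24 h are identical (11663 barcodes) and could not name the columns of the 24 h matrix. The control list holds 4340 barcodes for 14569 columns. Cells were therefore taken by matrix column. No neutrophil column was the same in any pair of libraries. Gene names in the files are partly of the rat type, with 28 names that begin with RT1- and 0 with H2-, while the labels name mice; genes therefore keep the names of the files, and no position or sequence is given.

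Neutrophils made up 0.191% of cells in control (exact binomial interval 0.121 to 0.286). At 12 h they made up 0.626% (0.487 to 0.791), at 24 h 1.04% (0.860 to 1.24) and at 96 h 0.0737% (0.0354 to 0.136). The intervals of 12 h and 24 h lie above those of control and 96 h and do not overlap each other. This order depends on the mitochondrial limit, which few cells of other types pass when it is strict. With at most 5% in place of 10%, 19 of 584, 41 of 1794, 28 of 1140 and 8 of 1634 cells are neutrophils, shares of 3.25%, 2.29%, 2.46% and 0.490%, with control the highest. The share within a density fraction also depends on how many neutrophils the gradient removed, which was not measured.

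Before the lineage limits, 25 cells passed the calprotectin share in control, 257 at 12 h, 205 at 24 h and 18 at 96 h. Among these, the limit on Csf1r and Fn1 removed 106 at 12 h and 52 at 24 h, that on Cd79b 66 and 22, and that on Cd3 genes 32 and 21, so that at 12 h most calprotectin-rich droplets also held RNA of another lineage. Before these limits the share was higher at 12 h (257 of 11027 cells) than at 24 h (205 of 11371). The order of 12 h and 24 h given above thus depends on the lineage limits too. Around the 8% threshold, 30 cells lay between 8% and 10%, of which 27 had a UMI of Mmp8, Mmp9, Csf3r or Cxcr2. Just outside it, 15 cells lay between 6% and 8%, of which 13 had one. In all, 21 of 23 control neutrophils, 66 of 69 at 12 h, 115 of 118 at 24 h and 9 of 10 at 96 h held at least 1 UMI of these 4 markers, which the rule did not use, so the name neutrophil is kept. Scrublet, a doublet caller, marked 1 of the 220 cells, at 24 h.

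The median neutrophil had 1410 UMIs in control, 1575 at 12 h, 2086 at 24 h and 2366 at 96 h, with 593, 606, 749.5 and 770.5 detected genes. Neutrophils are RNA-poor, and monocyte-like cells of the same libraries had 3809, 4308, 6797 and 5376 UMIs. The median mitochondrial share was 6.79% at 24 h and 4.54% at 12 h, and the part of this difference in the results was not tested beyond the stricter limit. The median calprotectin share was 15.5% in control, 22.2% at 12 h, 16.2% at 24 h and 24.2% at 96 h, and single cells reached 43.3%. Within 12 h the quartiles of cells ran over 15.4% to 29.3%, and within 24 h over 11.9% to 22.9%. In B cells, which should lack these genes, they made up 0.00228% of UMIs in control, 0.108% at 12 h, 0.0973% at 24 h and 0.00533% at 96 h, a measure of free RNA in the droplets.

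**Figure D1:**
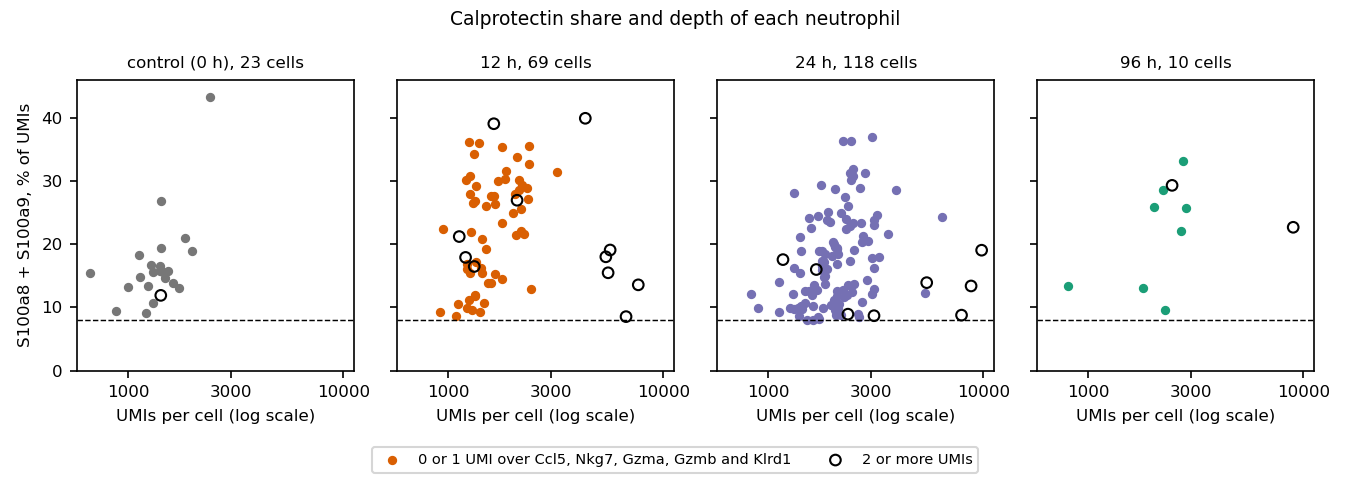
Each point is 1 neutrophil, with its UMIs on a log axis and the percentage of them from S100a8 and S100a9; panels are the 4 libraries and the dashed line is the 8% threshold. Open circles are cells with 2 or more UMIs over Ccl5, Nkg7, Gzma, Gzmb and Klrd1, 1 in control, 11 at 12 h, 8 at 24 h and 2 at 96 h, and the 5 cells with the most UMIs at 12 h, 5405 to 7648, are all open circles.

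The UMIs of S100a8 for each UMI of S100a9, a ratio that the rule did not set, differed between libraries. It was 0.748 (0.710 to 0.788) in control neutrophils. At 12 h it was 1.07 (1.04 to 1.09), at 24 h 0.964 (0.947 to 0.981) and at 96 h 0.883 (0.841 to 0.926). These values rest in part on few cells. A single control cell held 711 of the 2458 S100a8 UMIs of control. Without the cells with 2 or more UMIs over Ccl5, Nkg7, Gzma, Gzmb and Klrd1, S100a8 no longer exceeded S100a9 at 12 h. The UMIs of S100a8 and S100a9 were then 11243 and 11279 at 12 h, and 21621 and 22656 at 24 h. Monocyte-like cells held more S100a8 than S100a9 in every library, at 6.85, 1.74, 1.58 and 2.50 in the same order, and B cells 0.832, 1.62, 1.22 and 1.33. At 12 h the sum of both genes in monocyte-like cells was 0.945% of UMIs and in B cells 0.108%, and calprotectin-rich cells with at least 3 UMIs of Csf1r and Fn1, left out of the neutrophils, had ratios of 1.10 at 24 h (32 cells) and 1.29 at 12 h (88 cells).

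Csf3r and Cxcr2, receptors that sustain and guide neutrophils, differed between 24 h and 12 h by less than counting error. Csf3r, the receptor of the growth factor G-CSF, stood at 868 CPM in control, 1296 at 12 h, 1288 at 24 h and 312 at 96 h. Its 24 h to 12 h ratio was 0.994 (0.828 to 1.20), and thinned to 1000 UMIs a cell, Csf3r was found in 75% (66.1 to 82.6; 91.5% unthinned) of neutrophils at 24 h and 76.1% (64.1 to 85.7; 85.5% unthinned) at 12 h. Cxcr2, the receptor of the CXC chemokines that recruit neutrophils, stood at 124 CPM in control, 86.9 at 12 h, 93.6 at 24 h and 104 at 96 h, on 3 to 26 UMIs. In B cells of the same libraries, with medians of 3022 and 2918 UMIs, Csf3r was found in 0.674% and 0.768% and Cxcr2 in 0.0710% and 0.148%.

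Mmp8, the neutrophil collagenase, stood at 744 CPM in control, 1745 at 12 h, 1324 at 24 h and 2566 at 96 h. Mmp9, the gelatinase of the last granules to form, was at 0 UMIs in control, with 623 CPM at 12 h, 317 at 24 h and 347 at 96 h. Mmp9 was the only one of the 6 marker genes at 0 in a library, and a floor of 3 counts in the 32259 UMIs of control stands for 93.0 CPM. After thinning, Mmp8 was found in 44.0% (34.8 to 53.5; 55.9% unthinned) of cells at 24 h and 41.8% (29.8 to 54.5; 50.7% unthinned) at 12 h, and Mmp9 in 17.2% (10.9 to 25.4; 26.3% unthinned) and 14.9% (7.40 to 25.7; 23.2% unthinned), shares whose intervals overlap. In B cells the thinned shares were 1.03% and 1.18% for Mmp8 and 0.426% and 0.502% for Mmp9.

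RNA of other cell types was low but not absent. Monocyte markers, of which 13 of 16 are named in the files, summed to 25605 CPM in control, 7334 at 12 h, 11698 at 24 h and 15358 at 96 h, most of it Lyz2, which neutrophils also make (25264 CPM in control, 7109.7 at 12 h, 11464 at 24 h and 15185 at 96 h); Ms4a7 was at 0 in all 4 libraries. T cell markers (10 of 11 in the files) summed to 62.0 to 520.0 CPM, B cell markers (9 of 10) to 0 to 186 CPM and NK cell markers (9 of 9) to 217, 1774, 1108 and 4403 CPM. Cd5 and Cd28, Pax5 and Blk, and Eomes were at 0 in every library. Eosinophil markers reached at most 1 UMI in a library, as did basophil and mast cell markers, dendritic cell markers summed to 0 to 31.0 CPM, platelet markers to 0 to 28.8 CPM, erythroid markers to 54.0 to 173 CPM, and all 5 acinar markers in the files were at 0.

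The NK and killer T cell RNA sat in a few cells. Ccl5, Nkg7, Gzma, Gzmb and Klrd1 summed to 870 UMIs at 12 h, 96.4% of them in 5 cells, and to 748 UMIs at 24 h, 95.7% in 5 cells. Ccl5, a chemokine of killer lymphocytes, averaged 1878 CPM at 24 h and 5054 CPM at 12 h, with 186 in control and 6067 at 96 h. The 8 cells at 24 h with 2 or more such UMIs had a median of 4279.5 UMIs, against 2053 in the other cells, and held 14.5% of all neutrophil UMIs. The 11 such cells at 12 h had a median of 4339 UMIs, against 1493 in the other cells, and held 30.9%. Many of these cells held only 2 or 3 such UMIs: 4 of the 8 at 24 h and 5 of the 11 at 12 h held 10 or more, and these had median depths of 8345.5 UMIs at 24 h and 5660.0 UMIs at 12 h. Scrublet marked 1 of the 8 at 24 h and 0 of the 11 at 12 h as doublets, the only neutrophil it marked. Their definition, and the naming of Ccl5 here and of Ngp, Elane, Ltf, Mpo and Prtn3, came after their values were seen.

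Several azurophil and early granule genes had few or no UMIs. Whether the gene set of the files captures these genes was not tested. Mpo, myeloperoxidase, and Ltf, lactoferrin, had 0 UMIs in all 4 libraries, Elane, neutrophil elastase, had 2, 2, 8 and 0 UMIs in time order, and Prtn3, proteinase 3, had 0, 2, 0 and 0. Of 11 azurophil genes in the files, 4 passed the floor set for ratios (50 CPM in either library and 20 UMIs over both), all of them made by other myeloid cells too. Lyz2, lysozyme, was 1.61 (1.5 to 1.73) times as high at 24 h as at 12 h, and Ctsd, cathepsin D, 1.94 (1.19 to 3.30) times.

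Specific granule genes split into an even group and a patchy one. Slpi, an antiprotease, stood at 2573 CPM in control, 5531 at 12 h, 5948 at 24 h and 2427 at 96 h. Chi3l1, a chitinase-like protein, stood at 2449 CPM in control, 2990.1 at 12 h, 3850.2 at 24 h and 1837 at 96 h, and Lrg1, a leucine-rich glycoprotein released from granules, at 4681 CPM in control, 3041 at 12 h, 3753 at 24 h and 3502 at 96 h. These genes had UMIs in nearly every cell at 24 h and 12 h, with Slpi in 117 of 118 and 66 of 69. Pglyrp1, a peptidoglycan-binding protein, was found in 98 and 56 cells, with 1518 CPM at 24 h and 2092 CPM at 12 h and a ratio of 0.726 (0.623 to 0.846).

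The patchy group was made up of Camp, Ngp, Lcn2 and Cd177. Camp, the cathelicidin precursor, stood at 4619 CPM in control, 369 at 12 h, 137 at 24 h and 3814 at 96 h. Lcn2, the iron-binding lipocalin, stood at 713 CPM in control, 521 at 12 h, 54.0 at 24 h and 3189.6 at 96 h. Camp had UMIs in 9 of 23, 13 of 69, 24 of 118 and 7 of 10 cells, but 1 control cell held 138 of its 149 control UMIs. Ngp, neutrophilic granule protein, had 4 UMIs in control, 3 at 12 h, 0 at 24 h and 123 in 3 cells at 96 h.

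Summed over each library, Camp, Ngp and Lcn2 gave 176 UMIs in control, 126 at 12 h, 53 at 24 h and 325 at 96 h, of which the 3 richest cells held 96.0%, 75.4%, 41.5% and 98.2%. Cells with at least 1 of these UMIs numbered 9 of 23, 17 of 69, 28 of 118 and 7 of 10. The sums thus rested on a few granule-rich cells in control, at 12 h and at 96 h, while at 24 h no cell held more than 10 of these UMIs. Cells with 2 or more UMIs of the 3 genes numbered 4, 7, 8 and 5 in time order. Il1b, the inflammatory cytokine of activated neutrophils, had 2 or more UMIs in 14 of 23 cells in control, 15 of 69 at 12 h, 45 of 118 at 24 h and 3 of 10 at 96 h. Of the 8 cells at 24 h with 2 or more UMIs of Camp, Ngp and Lcn2, 5 were also among these, and of the 7 at 12 h, 0 were. Those 5 cells held at most 3 UMIs of the granule genes each, and the 3 richest cells at 24 h had 0 of Il1b. So few cells cannot show whether the 2 times differ in Il1b among the cells richest in granule genes.

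**Figure D2:**
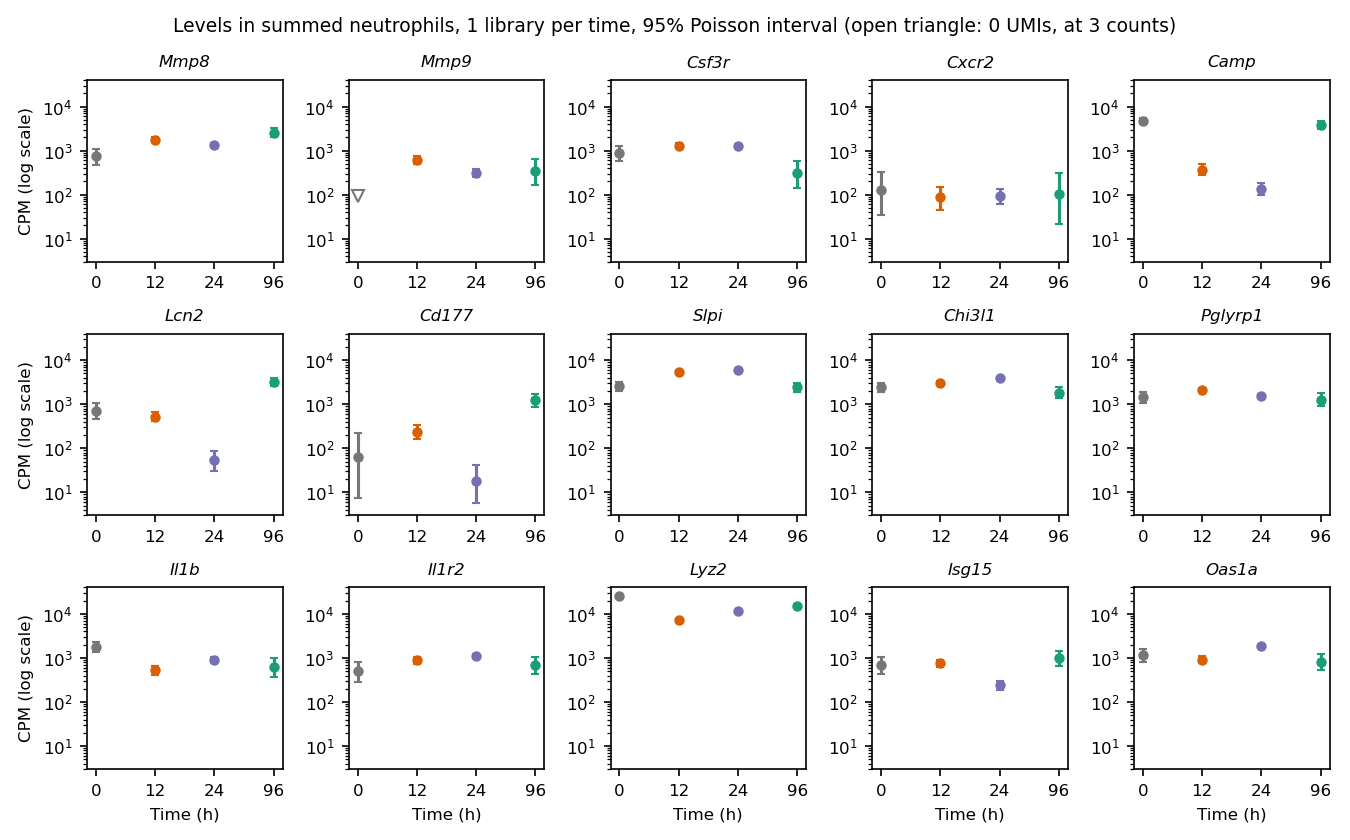
Summed level of 15 genes in the neutrophils of each library in CPM on a log axis, with 95% Poisson intervals; an open triangle is 0 UMIs, drawn at 3 counts. Slpi, Chi3l1 and Pglyrp1 vary less over the 4 times than Camp, Lcn2 and Cd177. Camp, Lcn2 and Isg15 are lowest at 24 h, Cd177 ranges over 18.0 to 1248 CPM, and Mmp9 is at 0 in control.

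Between the early times, neutrophils at 24 h held more S100a6, Lgals3, Alpl and Oas1a than at 12 h and less Isg15, Slfn4, Lcn2 and Cd177. Of 2123 genes past the floor, 460 (21.7%) were at least 1.5-fold higher at 24 h and 251 (11.8%) at least 1.5-fold lower, and the median log2 ratio was 0.08. Monocyte-like cells (Csf1r and Fn1 at least 3 UMIs, outside the calprotectin limit) had 115 of 2626 (4.38%) higher and 203 (7.73%) lower, on sums of 34062694 UMIs at 24 h and 19463117 at 12 h, where neutrophils had 277910 and 138122. At this depth many 1.5-fold differences are within counting error: with at least 100 UMIs a gene, 65 of 498 were higher and 41 lower. Without the cells with 2 or more killer lymphocyte UMIs, 439 of 1753 were higher and 212 lower, without those with 10 or more, 452 of 1849 and 208, and with mitochondrial UMIs of at most 5%, 176 and 130 of 873.

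The 12 genes furthest above 1 at 24 h, ranked by the interval bound nearest to 1, were led by RT1-T24-4, a class I histocompatibility gene, with 68 UMIs in 39 cells at 24 h, 0 at 12 h, 4 in control and 0 at 96 h. With 0 set to a floor of 3 UMIs per library its ratio was 11.3, a value that rests on that floor. Class I genes are near-identical copies among which reads can be split, so its level is uncertain, and monocyte-like cells and B cells had it at both times (271 and 95.2 CPM in monocyte-like cells). Gadd45g, a stress-induced growth arrest gene, had 53 UMIs at 24 h in 25 cells and 0 in the other 3 libraries. Its ratio of 24 h to 12 h was 8.78 with the same floor, and 28.3% of its UMIs were in 1 cell. Acod1, the itaconate enzyme of activated myeloid cells, had 20 UMIs at 24 h and 0 elsewhere, with 60.0% in 1 cell. Its ratio of 24 h to 12 h was 3.31 with the same floor. With a calprotectin limit of 12% in place of 8% its log2 ratio was -0.11, a sign set by the floor, since Acod1 had 0 UMIs at 12 h.

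S100a6, a calcium-binding protein of the calprotectin family that is linked to cell growth and stress, stood at 1271 CPM in control, 427 at 12 h, 2094 at 24 h and 173 at 96 h. Its ratio of 24 h to 12 h was 4.90 (3.75 to 6.52), against 1.23 (1.22 to 1.24) in monocyte-like cells. The 582 UMIs at 24 h were uneven between cells, with 90, 63 and 42 in the richest. S100a6 was found after thinning in 38.8% (29.9 to 48.3; 59.3% unthinned) and 20.9% (11.9 to 32.6; 37.7% unthinned) of neutrophils, shares whose intervals overlap. In B cells the thinned shares were 14.6% and 10.1%. Lgals3, the lectin galectin-3, stood at 341 CPM in control, 629.9 at 12 h, 1450.1 at 24 h and 416 at 96 h, with a ratio of 2.30 (1.82 to 2.94), and was found in 77.6% (68.9 to 84.8; 93.2% unthinned) and 40.3% (28.5 to 53.0; 56.5% unthinned) of cells. It was thus spread over most cells at 24 h, with 110 of 118 holding a UMI, and the shares in B cells were 4.22% and 2.30%.

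Alpl, tissue-nonspecific alkaline phosphatase and the classical enzyme of neutrophil secretory vesicles, had 0 UMIs in control and at 96 h, 138 CPM at 12 h and 547 at 24 h. The ratio of 24 h to 12 h was 3.98 (2.46 to 6.79), and the thinned shares were 36.2% (27.5 to 45.6; 55.9% unthinned) and 11.9% (5.30 to 22.2; 20.3% unthinned) in neutrophils, and 0.284% and 0.148% in B cells. A floor of 3 counts stands for 93.0 CPM in control and 104 CPM at 96 h. The level of 12 h rests on 19 UMIs, so no order of 12 h against control and 96 h is drawn. Monocyte-like cells held 1.88 CPM at 24 h and 1.08 CPM at 12 h.

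Of the remaining higher genes, Lrp1, an endocytic receptor, had 166 CPM at 24 h and 14.5 CPM at 12 h with a ratio of 11.4 (2.99 to 97.2). Cstb, the cathepsin inhibitor cystatin B, had 662 CPM at 24 h and 282 CPM at 12 h with a ratio of 2.34 (1.65 to 3.40). Hdac5, a histone deacetylase, Mrpl14, a mitochondrial ribosomal protein, and P4hb, protein disulfide isomerase, had ratios of 4.06 (1.74 to 11.6), 4.87 (1.95 to 15.7) and 5.63 (1.77 to 28.7) on 3 to 6 UMIs at 12 h. Lrp1 and P4hb were lower in neutrophils than in monocyte-like cells at both times.

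The 12 genes furthest below 1 at 24 h included granule genes held by a few cells and interferon-linked genes spread over many. Lcn2 had 54.0 CPM at 24 h and 521 CPM at 12 h, a ratio of 0.104 (0.0551 to 0.182), and Cd177, a surface partner of proteinase 3, had 18.0 CPM at 24 h and 239 CPM at 12 h, a ratio of 0.0753 (0.0229 to 0.194). At 12 h, 73.6% of the Lcn2 UMIs and 72.7% of those of Cd177 were in the 11 cells with 2 or more killer lymphocyte UMIs. Much of this was 1 cell of 4339 UMIs with 2 killer lymphocyte UMIs, which held 31 UMIs of Lcn2, 23 of Camp, 18 of Mmp9 and 9 of Cd177. The 5 cells with 10 or more held 20.8% of Lcn2 and 42.4% of Cd177. Without the cells with 10 or more in either library the ratios were 0.115 (0.0603 to 0.205) for Lcn2 and 0.0917 (0.0227 to 0.276) for Cd177, and without those with 2 or more 0.317 (0.150 to 0.658) and 0.179 (0.0402 to 0.640); with mitochondrial UMIs of at most 5% the log2 ratio of Lcn2 was -0.27.

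Camp and Mmp9 rested in part on the same cells. Camp had a ratio of 0.370 (0.237 to 0.575) and Mmp9 of 0.509 (0.373 to 0.693). Without the cells with 10 or more killer lymphocyte UMIs, which held 27.5% and 32.6% of their UMIs at 12 h, the ratios were 0.424 (0.260 to 0.690) for Camp and 0.601 (0.423 to 0.858) for Mmp9, still below 1. Without those with 2 or more, which include the granule-rich cell and held 76.5% and 64.0%, they were 1.17 (0.594 to 2.48) and 0.946 (0.613 to 1.49), with intervals that include 1. Mmp8 had a ratio of 0.759 (0.643 to 0.896) in all cells, 0.776 (0.645 to 0.935) without the cells with 10 or more and 0.990 (0.803 to 1.23) without those with 2 or more.

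Leaving out all cells with 2 or more killer lymphocyte UMIs moved other genes too. S100a6 then had a ratio of 7.88 (5.18 to 12.6), with 61.0% of its 12 h UMIs in those cells. RT1-T24-4 had 6.83 with 0 UMIs at 12 h set to 3, and Fth1 had 0.576 (0.551 to 0.603). Hdac5, with 5 of its 6 UMIs of 12 h in those cells, had 18.9 (3.23 to 761), and Lrp1, with 1 of 2, 17.3 (2.94 to 698). Eif4b had 0.287 (0.0718 to 1.05), an interval that includes 1. Txnip, an inhibitor of thioredoxin, had 3.52 (1.98 to 6.82) in place of 1.40 (1.05 to 1.89), S100a10 2.31 (1.35 to 4.21) in place of 1.44 (0.998 to 2.12), and Stfa2l1 2.07 (0.907 to 5.50) in place of 0.586 (0.374 to 0.922).

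By the 1.5-fold limit, the genes that lost a call included Lyz2 at 1.41 (1.31 to 1.52), Steap4 at 1.41 (0.964 to 2.10), S1pr4 at 1.18 (0.777 to 1.83), Clec4e at 1.24 (0.614 to 2.72), Eno1 at 0.738 (0.503 to 1.10) and Npm1, a nucleolar chaperone, at 0.749 (0.436 to 1.32). Among those that gained one as higher were Cox4i1 at 1.67 (1.12 to 2.56), Cxcr4 at 1.61 (0.725 to 4.04), Padi4 at 1.57 (0.822 to 3.26) and Ncf1, the p47 subunit of the NADPH oxidase, at 1.54 (0.827 to 3.10). Among those that gained one as lower were Alox5ap at 0.611 (0.511 to 0.732), Ifngr1 at 0.636 (0.475 to 0.858), Nlrp12 at 0.602 (0.365 to 1.01) and S100a4 at 0.661 (0.415 to 1.07). The counts of the gene lists below are over all neutrophils; without those cells the list of respiratory chain genes had 8 of 15 higher and 0 lower, specific granule genes 1 of 10 and 2, glucocorticoid response genes 4 of 10 and 0, glycolysis and hypoxia genes 1 of 13 and 3, interferon genes 3 of 15 and 7, and lipid mediator genes 0 of 5 and 1.

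The interferon-linked genes did not rest on those cells. Slfn4, a Schlafen gene induced by interferon in myeloid cells, stood at 1705 CPM in control, 2005 at 12 h, 734 at 24 h and 1109 at 96 h, with a ratio of 0.366 (0.304 to 0.440) and 0.310 (0.255 to 0.376) without those cells. It was found after thinning in 55.2% (45.7 to 64.4; 72.0% unthinned) and 85.1% (74.3 to 92.6; 94.2% unthinned) of neutrophils, and in 1.35% and 4.10% of B cells. Isg15, a ubiquitin-like interferon product, stood at 682 CPM in control, 753 at 12 h, 237 at 24 h and 1005 at 96 h, with a ratio of 0.315 (0.228 to 0.433) and 0.247 (0.177 to 0.344) without those cells. Oasl2 and Ifit1bl, interferon-induced antiviral genes, had ratios of 0.480 (0.326 to 0.705) and 0.572 (0.469 to 0.697).

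The rest of the 12 lower genes were Fth1, Clec4b2, Scimp and Eif4b. Fth1, ferritin heavy chain, one of the most abundant transcripts of these cells, had 17520.1 CPM at 24 h and 25847 CPM at 12 h, a ratio of 0.678 (0.649 to 0.708) with counts in every cell of both libraries, while monocyte-like cells had 1.01 (1.01 to 1.02). Clec4b2, a C-type lectin receptor, had a ratio of 0.489 (0.339 to 0.706), and Scimp, an adaptor of immune receptors, of 0.504 (0.361 to 0.702). Eif4b, a translation factor, had 7 and 17 UMIs and a ratio of 0.205 (0.0717 to 0.519).

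**Figure D3:**
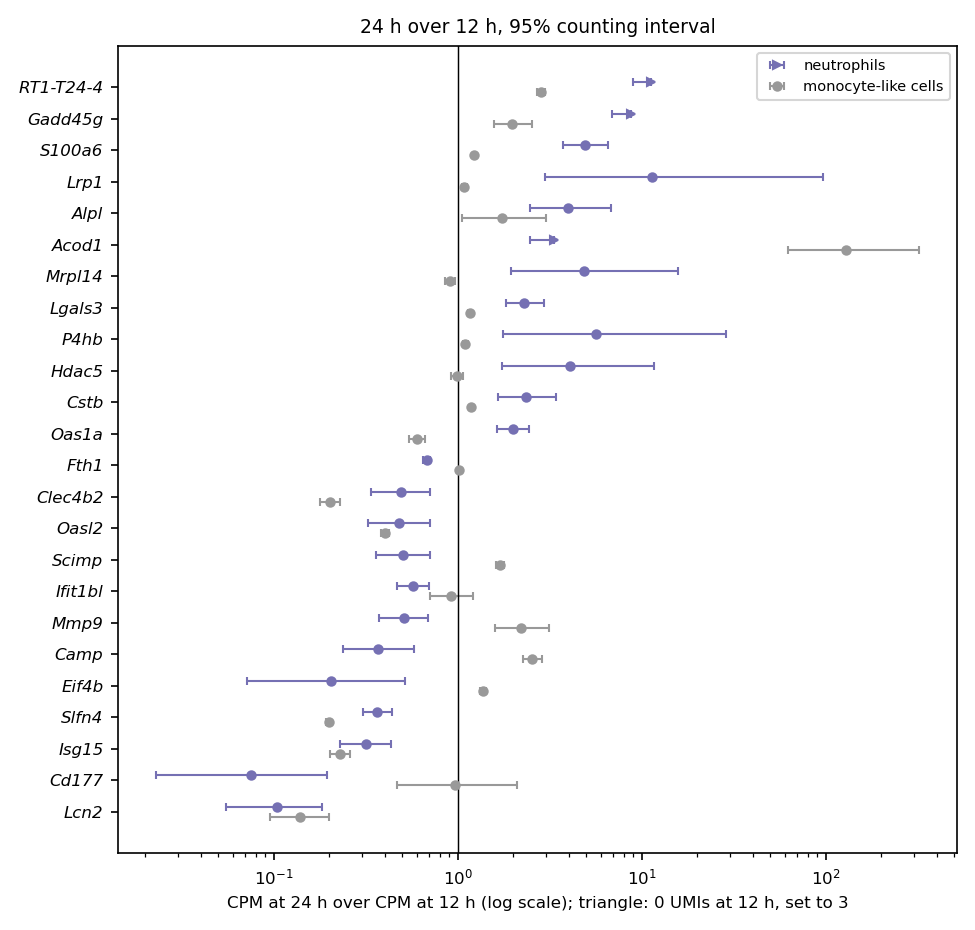
Level at 24 h over level at 12 h on a log axis for the 12 genes furthest above and the 12 furthest below 1 in neutrophils, with the same ratio in monocyte-like cells and 95% counting intervals; a triangle marks 0 UMIs at 12 h, set to 3. S100a6, Lgals3 and Cstb lie nearer to 1 in monocyte-like cells than in neutrophils, Oas1a lies on opposite sides of 1, and Isg15, Slfn4, Oasl2 and Lcn2 lie below 1 in both classes.

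Genes of the type I interferon response, a programme of antiviral genes, stood on both sides of 1 in neutrophils and mostly below 1 in monocyte-like cells. Of 35 listed genes, 16 passed the floor in neutrophils, with 3 at least 1.5-fold higher at 24 h, 5 lower and a median log2 ratio of -0.30, beside 0.08 over all genes. In monocyte-like cells 15 passed, with 0 higher, 11 lower and a median of -0.84, beside -0.13 over all genes. Over all genes, 21.7% were higher and 11.8% lower in neutrophils, and 4.38% and 7.73% in monocyte-like cells. The lower ones in neutrophils were Slfn5, Isg15, Oasl2, Gbp2 and Ifit1bl, and the higher ones were Oas1a, Ifitm1 and Ifitm2.

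Ifit3, Oas1a and the Ifitm genes differed most between both classes. Ifit3, an interferon-induced antiviral protein, stood at 2914 CPM in control, 594 at 12 h, 723 at 24 h and 1179 at 96 h, with a ratio of 1.22 (0.938 to 1.59) against 0.130 (0.119 to 0.142) in monocyte-like cells. The ratio of these 2 ratios was 9.37 (7.13 to 12.3). Oas1a, an oligoadenylate synthetase that senses double-stranded RNA, stood at 1147 CPM in control, 912 at 12 h, 1824 at 24 h and 832 at 96 h, with a ratio of 2.0 (1.64 to 2.45) against 0.597 (0.540 to 0.661) in monocyte-like cells, and was found after thinning in 76.7% (68.0 to 84.1; 94.1% unthinned) and 56.7% (44.0 to 68.8; 75.4% unthinned) of neutrophils, and in 1.38% and 1.36% of B cells. Ifitm1, a membrane protein that blocks viral entry, had ratios of 1.77 (1.5 to 2.10) in neutrophils and 0.585 (0.572 to 0.598) in monocyte-like cells. Ifit, Oas and Ifitm genes have close paralogs, so single levels are uncertain.

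By level, the interferon genes were high in neutrophils. At 24 h, 12 of 16 past the floor were at least 1.5-fold higher than in monocyte-like cells and 2 lower, with a median log2 ratio of 2.10, and at 12 h 10 of 18 were higher and 3 lower, with a median of 0.73. Over all genes, 25.3% were higher and 42.4% lower at 24 h, and 22.0% higher and 50.1% lower at 12 h. Ifit1bl had 799 CPM in neutrophils and 4.34 in monocyte-like cells at 24 h, and 1397 and 4.73 at 12 h. Control neutrophils held these transcripts too, with 2325 CPM of Ifit1bl and 2914 of Ifit3, both above their levels at 12 h and 24 h.

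Of the interleukin-1 system, 8 of 14 genes in the files passed the floor, with 4 higher at 24 h, 1 lower and a median log2 ratio of 0.56, beside 21.7% higher, 11.8% lower and 0.08 over all genes. Il1b, the cytokine itself, stood at 1767 CPM in control, 521 at 12 h, 918 at 24 h and 624 at 96 h, with a ratio of 1.76 (1.35 to 2.32). Casp1, which cleaves its precursor, and Pycard, the adaptor that brings Casp1 into inflammasomes, had ratios of 1.99 (1.11 to 3.77) and 1.66 (1.11 to 2.55), and Casp4, the caspase that senses endotoxin, of 1.89. The lower one was Il18rap, a chain of the interleukin-18 receptor, at 0.555 (0.273 to 1.14).

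The inhibitors of the same system differed from monocyte-like cells. Il1r2, a decoy receptor that binds interleukin-1 without signalling, stood at 496 CPM in control, 891 at 12 h, 1094 at 24 h and 693 at 96 h in neutrophils. Its ratio of 24 h to 12 h was 1.23 (0.993 to 1.53) in neutrophils and 0.0701 (0.0606 to 0.0808) in monocyte-like cells, whose level was 6.34 CPM at 24 h and 90.4 CPM at 12 h. Neutrophils thus had 173 (144 to 206) times the level of monocyte-like cells at 24 h and 9.85 (8.13 to 11.8) times at 12 h. Il1rn, the receptor antagonist, had 637 CPM at 24 h and 485 CPM at 12 h, with a ratio of 1.31 (0.986 to 1.77). For Il1b itself the 24 h to 12 h ratio was 4.22 (4.03 to 4.41) in monocyte-like cells, larger than in neutrophils.

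NF-kB feedback genes, which are induced by that factor and restrain it, had 7 of 18 past the floor. Of these 3 were higher and 0 lower, with a median log2 ratio of 0.43, beside 21.7%, 11.8% and 0.08 over all genes. Nfkbia, which holds NF-kB in the cytoplasm, had 1115 CPM at 24 h and 644 CPM at 12 h, a ratio of 1.73 (1.36 to 2.22), and Tnip1, a partner of A20, had 338 CPM at 24 h and 123 CPM at 12 h, a ratio of 2.75 (1.63 to 4.92). Sod2, mitochondrial superoxide dismutase, had 2706 CPM at 24 h and 3157 CPM at 12 h, a ratio of 0.857 (0.761 to 0.967), against 1.85 (1.81 to 1.88) in monocyte-like cells. In those cells 8 of 9 genes of the list were higher, beside 4.38% over all genes.

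Cytokine and chemokine genes were few. Of 23 in the files 6 passed the floor, with 1 higher and 1 lower, beside 21.7% higher and 11.8% lower over all genes. Ccl6, a myeloid chemokine, stood at 6014 CPM in control, 1636 at 12 h, 1396 at 24 h and 3363 at 96 h, and Osm, oncostatin M, had 155 CPM at 24 h and 145 CPM at 12 h. The higher one was Tnfsf13, a B cell growth factor, with 27 and 3 UMIs and a ratio of 4.47 (1.38 to 23.0). The lower one, Ccl4, had all of its 8 and 22 UMIs in the cells with 2 or more killer lymphocyte UMIs.

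In monocyte-like cells 10 of 15 immediate early genes, the first to be induced by many stimuli, were higher and 0 lower, beside 4.38% and 7.73% over all genes. In neutrophils 12 of 23 passed the floor, with 3 higher, 1 lower and a median of 0.32, near the 21.7% and 11.8% over all genes. The higher ones were Jun, at 2.28 (1.43 to 3.80), Btg2, at 1.84 (1.42 to 2.41), and Zfp36l1, at 1.94. Jund was lower, at 0.642 (0.459 to 0.902), and Dusp1, a phosphatase that switches off MAP kinases, had a ratio of 0.838 (0.687 to 1.02) in neutrophils against 2.03 (2.0 to 2.06) in monocyte-like cells. Of the glucocorticoid response list, 10 of 20 passed, with 2 higher and 0 lower. They were Fkbp5, an immunophilin that is a standard marker of that hormone, at 3.35 (1.17 to 13.2), and Mt1, a metallothionein, at 1.83.

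Beside 21.7% higher and 11.8% lower over all genes, 13 of 19 receptors of chemoattractants and growth factors in the files passed the floor. Of these 0 were higher and 1 lower, with a median of -0.06. The lower one was Ltb4r, the leukotriene B4 receptor, with 9 and 13 UMIs and a ratio of 0.344 (0.130 to 0.870). Ccr1, Il17ra, Ifngr1 and Tnfrsf1a, receptors of chemokines, interleukin-17, interferon gamma and TNF, had ratios of 0.838, 0.878, 0.765 and 1.40, none past 1.5-fold. Of adhesion genes, 11 of 18 passed, with 3 higher and Cd177 lower. Among the higher ones were Itgb2, the shared beta chain of leukocyte integrins, at 1.51 and the sphingosine phosphate receptor S1pr4 at 1.53 (1.04 to 2.31), both close to the 1.5-fold limit. Cxcr4, which is high on aged neutrophils, had 129.5 CPM at 24 h and 101 CPM at 12 h.

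Beside 21.7% higher and 11.8% lower over all genes, pattern and danger receptors had 10 of 22 past the floor, with 2 higher and 0 lower. They were Clec4e, the Mincle receptor of mycobacterial lipids, at 1.72 (0.860 to 3.72), and Tlr13, a sensor of bacterial ribosomal RNA, at 1.68. Clec4d, which pairs with Clec4e, stood at 1891 CPM in control, 948 at 12 h, 842 at 24 h and 693 at 96 h; its ratio of 0.888 (0.714 to 1.11) compares with 2.86 (2.70 to 3.03) in monocyte-like cells. Of 3 Fc receptors past the floor 1 was higher, Fcgr2b, the inhibitory IgG receptor, at 2.29 (1.25 to 4.56). The NADPH oxidase, which makes the oxidative burst, had 5 genes past the floor, with Cyba, its p22 subunit, higher at 1.68 (1.35 to 2.11) and the others at 1.12 to 1.35.

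Of 23 survival and death genes in the files, 9 passed the floor, with 6 higher, 0 lower and a median of 0.70, beside 21.7% higher and 11.8% lower over all genes. They were of both kinds. Bcl2a1 and Bcl2l1, which protect cells from apoptosis, had ratios of 1.83 (1.19 to 2.88) and 1.63 (0.810 to 3.54) and Birc2, an inhibitor of apoptosis, 2.19, while Fas, a death receptor, had 3.31 (0.983 to 17.4) and Bid, a gene of the apoptotic pathway, 2.49. Several of these rest on few UMIs, with 3 of Fas at 12 h, and the intervals of Bcl2l1 and Fas include 1.

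Of 25 glycolysis and hypoxia genes in the files 15 passed, with 1 higher (Tpi1) and 5 lower, beside 21.7% and 11.8% over all genes. Among the lower ones were Eno1 at 0.651 (0.473 to 0.900), Pgk1 at 0.618 (0.458 to 0.837) and Pgam1 at 0.472 (0.292 to 0.759), enzymes of the later steps of glycolysis, and Hk2, the hexokinase at its entry, at 0.563. Of 24 nuclear-encoded respiratory chain genes 20 passed, with 5 higher and 1 lower, and a median of 0.20, with the higher share near the 21.7% over all genes. The highest was Uqcrq, a subunit of complex III, at 2.86 (1.34 to 7.01), and the lowest Ndufa2, a subunit of complex I, at 0.431 (0.189 to 0.970).

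The remaining lists differed in how many genes passed 1.5-fold, beside 21.7% higher and 11.8% lower over all genes. Actin and shape genes had 20 of 20 past the floor, with 1 higher, Cotl1 (coactosin), at 2.31 (1.56 to 3.52), and 2 lower, Msn (moesin) at 0.614 and Actg1, a cytoskeletal actin, at 0.573 (0.255 to 1.31). Genes of the G-CSF and STAT3 response had 11 past the floor, with 2 higher, the metalloreductase Steap4 at 1.75 (1.21 to 2.58) and the kinase Jak2 at 1.67, and 2 lower, Slfn4 and the signal transducer Stat5b at 0.497. Of 10 myeloid transcription factors 1 was higher, Spi1 (PU.1), at 1.82 (1.35 to 2.47), and 1 lower, Hif1a, at 0.497 (0.186 to 1.33). Of the S100 family 6 passed, 2 of them used by the rule, with S100a6 and S100a11 higher, the second at 1.61 (1.35 to 1.92), and 0 lower. Gelatinase granule and secretory vesicle genes had 4 of 8 higher (Alpl, Fcnb, Timp2 and Anpep) and Mmp9 lower, with a median of 0.87 that was -0.09 when at least 100 UMIs were asked.

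Extracellular trap genes had 3 past the floor and 0 past 1.5-fold, with Padi4, the arginine deiminase that opens chromatin for traps, at 1.49 (0.847 to 2.75). Of genes linked to suppressive neutrophils 2 of 17 passed, Acod1 and Tgfb1, with Tgfb1 at 0.688 (0.319 to 1.53). The aged neutrophil list had 4 past the floor and 0 past 1.5-fold, heat shock genes 4 with 1 higher (Dnajb6), lipid mediator genes 5 and 0 past 1.5-fold, and DNA replication and mitosis genes 2 of 27 past the floor, both tubulins, and 0 past 1.5-fold. Neutrophil precursor genes had 7 of 22 past the floor, with Fcnb higher and Camp and Npm1 lower. Azurophil genes had 2 of 4 higher (Lyz2 and Ctsd) and 0 lower. Specific granule genes had 1 of 12 higher, the resistin-like protein Retnlg at 1.58 (1.17 to 2.15), and 5 lower (Cd177, Lcn2, Ltb4r, Camp and Anxa3), with a median of -0.35. Over all genes 21.7% were higher and 11.8% lower, with a median of 0.08.

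**Figure D4:**
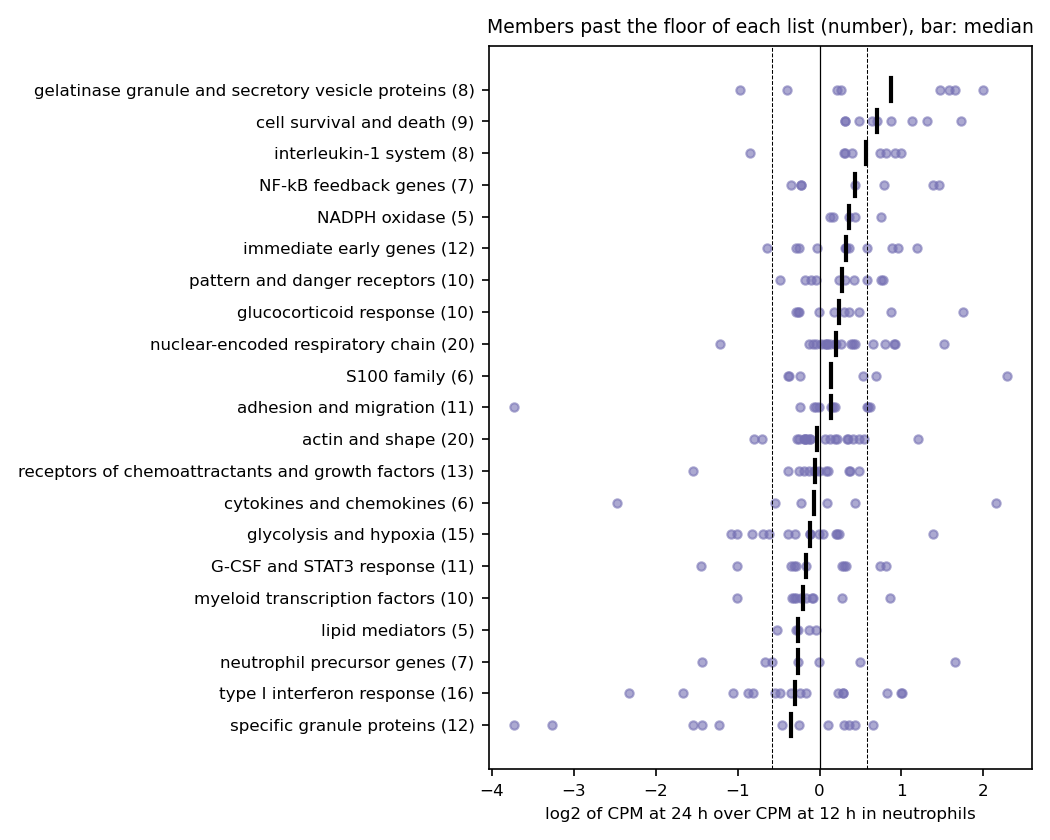
log2 ratio of 24 h to 12 h in neutrophils for each gene past the floor in lists with at least 5 such genes; each point is a gene, the bar is the list's median, the number of genes is in brackets and dashed lines mark 1.5-fold. Survival and interleukin-1 genes lie mostly to the right of 0, specific granule and interferon genes spread from below -3 or -2 to above 0, and the median over all genes is 0.08.

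Set against monocyte-like cells of the same library, neutrophils were marked by Mmp8, Pglyrp1, Retnlg, stefins and Alpl, and held less of Fcnb, Vcan, Cd68 and S100a4. At 24 h, 704 of 2784 genes past the floor (25.3%) were at least 1.5-fold higher in neutrophils and 1181 (42.4%) lower, with a median log2 ratio of -0.33. At 12 h, 648 of 2944 (22.0%) were higher and 1476 (50.1%) lower, with a median of -0.59. The split moves with the scaling, and S100a8 and S100a9 fill 17.9% of neutrophil UMIs at 24 h and 22.2% at 12 h. With both genes left out of the total, 994 were higher and 959 lower at 24 h, and 980 and 1210 at 12 h; with median-of-ratios scaling, 924 and 933 at 24 h, and 1002 and 1009 at 12 h. The classes were cut on S100a8, S100a9, Csf1r and Fn1, so these differences describe cells and are no test.

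Mmp8 had 1324 CPM in neutrophils and 12.9 in monocyte-like cells at 24 h, a ratio of 103 (89.0 to 118), and 1745 and 12.2 CPM at 12 h, a ratio of 143 (119 to 171). Pglyrp1 followed with 203 (173 to 238) times the level at 24 h and 407 (323 to 516) times at 12 h. Retnlg had ratios of 167 (133 to 210.1) and 378 (228 to 648). Alpl was 291 (216 to 396) and 127 (64.8 to 249) times as high. Fcar, which encodes an IgA receptor in rats and humans, Nlrp12, an inhibitory NOD-like receptor, and Mgam, a maltase that neutrophils express, had 158, 173 and 133 CPM at 24 h, against 0.352, 0.264 and 0.617 CPM in monocyte-like cells.

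Padi4 had 184 CPM against 1.20 in monocyte-like cells at 24 h and 123 against 0.565 at 12 h, and Slc2a3, a high-affinity glucose transporter, 363 against 3.29 and 449 against 2.57. Stfa2 and Stfa2l1, close copies of the protease inhibitor stefin A among which reads can be split, had ratios of 192 (149 to 249.8) and 71.4 (48.5 to 104) at 24 h and 356 (211 to 621) and 916 (385 to 2647) at 12 h. For Stfa2l1, 74.4% of the neutrophil UMIs at 12 h were in 1 cell, and 82.1% in the cells with 2 or more killer lymphocyte UMIs but 0% in those with 10 or more.

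On the low side, Fcnb, a ficolin of monocytes and neutrophil precursors, had 68.4 CPM in neutrophils and 2294 in monocyte-like cells at 24 h, a ratio of 0.0298 (0.0179 to 0.0465), and 21.7 and 2599 CPM at 12 h, a ratio of 0.00836 (0.00172 to 0.0244). Cd68, a lysosomal protein of macrophages, had ratios of 0.0405 (0.0194 to 0.0746) and 0.0327 (0.00891 to 0.0838), and S100a4 of 0.0454 (0.0343 to 0.0589) and 0.0578 (0.0405 to 0.0800), so within the S100 family S100a4 was low where calprotectin was high. Vcan, a matrix proteoglycan of classical monocytes, had 4 UMIs at 24 h and 1 at 12 h, and Mal, a membrane raft protein, ratios of 0.0276 (0.0111 to 0.0568) and 0.0367 (0.0119 to 0.0857). Fn1, which was also among the 6 lowest, was used to choose the cells.

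**Figure D5:**
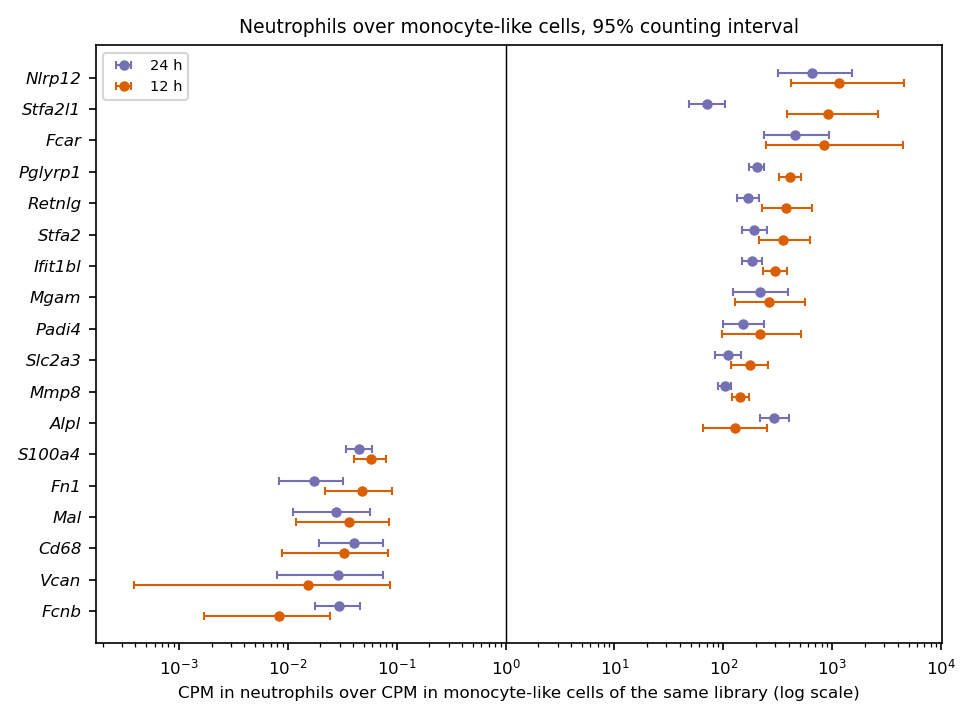
Level in neutrophils over level in monocyte-like cells of the same library on a log axis, at 24 h and 12 h, for the 12 genes ranked highest and the 6 ranked lowest over both times, with 95% counting intervals. The upper 12 genes lie between 71.4 and 1163 and the lower 6 between 0.00836 and 0.0578.

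By list, respiratory chain genes were lower than in monocyte-like cells in 19 of 22 at 24 h, with a median log2 ratio of -1.23, and in 22 of 22 at 12 h, with -1.82, beside 42.4% and 50.1% lower over all genes and medians of -0.33 and -0.59. Cox4i1, a core subunit of cytochrome oxidase, had 587 CPM in neutrophils and 1542 in monocyte-like cells at 24 h, and 434 and 1367 at 12 h. Mature neutrophils are known to live on glycolysis. Of the glycolysis and hypoxia list 7 of 15 were higher and 2 lower at 24 h, and 5 and 3 of 15 at 12 h. Over all genes 25.3% were higher at 24 h and 22.0% at 12 h. Cybb, the catalytic subunit of the NADPH oxidase, was lower, at 0.0860 (0.0609 to 0.118) and 0.0936 (0.0512 to 0.157).

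Lipid mediator genes were higher than in monocyte-like cells in 5 of 5 at both times, with medians of 1.05 at 24 h and 1.19 at 12 h. They were Alox5ap, which feeds 5-lipoxygenase and had ratios of 1.80 and 2.28, Lta4h, the last enzyme of leukotriene B4 synthesis, Pla2g7, which degrades platelet-activating factor, Lpcat2, which makes it, and Anxa1, a pro-resolving protein. Specific granule genes were higher in 8 of 9 at 24 h and 10 of 12 at 12 h, with medians of 1.91 and 3.83. Chemoattractant and growth factor receptors were higher in 7 of 13 and 9 of 14 and lower in 2 and 3, and G-CSF and STAT3 genes higher in 8 of 11 and 8 of 12, with medians of 0.99 and 1.54. Neutrophil precursor genes were lower in 7 of 9 at 24 h and 8 of 10 at 12 h. DNA replication genes were lower in 2 of 3 and 3 of 4, too few to set against the share over all genes. Over all genes 25.3% were higher and 42.4% lower at 24 h, with a median of -0.33. At 12 h 22.0% were higher and 50.1% lower, with a median of -0.59.

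The few neutrophils of control and 96 h give levels with wide intervals and no ratio. In control, Lyz2 at 25264 CPM (23559 to 27060.0), Ccl6 at 6014 CPM (5197 to 6922) and Il1b at 1767 CPM (1338 to 2289) lay above the intervals of all later libraries, and Btg2, an antiproliferative immediate early gene, stood at 1953 CPM (1501 to 2499). Cebpb, a transcription factor of the emergency neutrophil programme, stood at 5735 CPM in control, 2744 at 12 h, 3332 at 24 h and 1907 at 96 h. At 96 h, Cd177 stood at 1248 CPM (874 to 1728) and Ngp at 4264 CPM (3544 to 5088), in 3 cells each, and Anxa1 at 5859 CPM (5009 to 6812), with 46.7% in 1 cell. Csf3r at 96 h, at 312 CPM (143 to 592), lay below the intervals of 12 h and 24 h. Values of 96 h rest on 10 cells, of which 1 held 8972 of the 28844 UMIs and 265 of the 271 killer lymphocyte UMIs.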

How the data were processed

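The authors deposited raw UMI counts, as 1 matrix of genes by cells per library. Cell Ranger, Seurat and mm10 are named per the submitters' processing notes, without versions or roles. The matrices list 16152 genes. All columns were taken as cells of the named library, which the barcode lists could not check for control and 24 h. Cells had at most 15.0% mitochondrial UMIs as deposited, and at most 10% were kept here. The neutrophils, gene lists and tests were chosen with earlier results of these data known. UMIs were summed per class and library and scaled to CPM. Ratios were counted where a gene had at least 50 CPM in either class and 20 UMIs over both, and a count of 0 was set to 3. Levels have exact Poisson, ratios exact conditional binomial and shares exact Clopper-Pearson intervals at 95%. The interval of a ratio of 2 ratios is a normal approximation on the log scale. A level with no interval of its own is covered by that of its ratio. Shares of cells with a UMI were taken after thinning to 1000 UMIs, which left out 2 neutrophils each in control, at 12 h and at 24 h and 1 at 96 h. B cells had at least 2 UMIs of Cd79b.

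Named genes were, for 24 h against 12 h, the 12 highest and 12 lowest ratios by the bound nearest to 1. Their level had to reach 25% of the highest of any class, a guard against free RNA. The 12 highest and 6 lowest against monocyte-like cells followed the same rule, and so did the extremes and up to 4 abundant members of each list. Mitochondrial, ribosomal, haemoglobin, immunoglobulin and T cell receptor genes were excepted. Other list members past 1.5-fold were named after their values were seen. Alternatives changed the calprotectin, mitochondrial, lineage and depth limits, doublets, scaling, floors and the monocyte-like class. Limits of 1 and of 9 UMIs over 5 killer lymphocyte genes were added after seeing the data. A few list members are counted but not reported here by name. Steps were tested on simulated data. Software was python 3.11.15, numpy 2.4.6, scipy 1.17.1, pandas 2.3.3, scanpy 1.11.5, anndata 0.12.19 and matplotlib 3.10.9.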

Additional observations from a re-analysis of the deposited data

Results flagged for a closer look

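A few genes stood out because neutrophils and monocyte-like cells of the same libraries moved to opposite sides between 24 h and 12 h, each by at least 1.5-fold. The difference between the classes was not tested, since there is 1 library per time. Ifitm1, an interferon-induced membrane protein, had a 24 h to 12 h ratio of 1.77 in neutrophils and 0.585 in monocyte-like cells. S100a11, a calcium-binding protein, had 1.61 in neutrophils and 0.566 in monocyte-like cells, and Uqcrq, of respiratory complex III, 2.86 and 0.602. Jund, an AP-1 subunit, had 0.642 in neutrophils and 2.17 in monocyte-like cells, and Scimp, an adaptor of immune receptors, 0.504 and 1.70.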

How the results depend on the processing

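With 1 library per time, neither a replicate nor a donor could be left out, and depth is 28844 to 277910 UMIs per library of neutrophils. No paired analysis was possible because each group is 1 library. Of 134 recomputed shares and counts, 116 stayed near the reported value. With mitochondrial UMIs of at most 5%, the shares were 3.25% in control, 2.29% at 12 h, 2.46% at 24 h and 0.490% at 96 h, and between 24 h and 12 h 176 genes were higher and 130 lower. With 0 UMIs of other lineages the shares were 0.677% at 24 h and 0.390% at 12 h. The share at 24 h was 1.30% with a calprotectin limit of 4% and 0.765% with 12%. With at least 100 UMIs, 65 genes were higher and 41 lower at 24 h. Against monocyte-like cells at 12 h, 980 genes were higher with calprotectin left out of the total and 1002 with median-of-ratios scaling. With no CPM floor, 4230 were higher and 2970 lower at 24 h, and 4444 and 2788 at 12 h, since low genes then enter. Of 1422 values of single genes and lists, 1280 stayed within their interval or near their value and 137 moved. The other 5 were at least 1.5-fold in the main setting and changed sign. Sign changes of smaller values are not counted in the 5. The 5 were Acod1 with a calprotectin limit of 12% (log2 ratio -0.11), Camp without the cells with 2 or more killer lymphocyte UMIs (0.23), the median of gelatinase granule genes with at least 100 UMIs (-0.092), and Fn1 against monocyte-like cells chosen to lack it (5.96 at 24 h and 6.51 at 12 h), by construction. Acod1 had 0 UMIs at 12 h, which were set to 3, and its sign came from that floor. Camp lost 76.5% of its 12 h UMIs with the cells left out. The cause of the change in the gelatinase granule list was not tested.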
